A study of Homo sapiens with 6 samples.

Results

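The genes of the type III receptor tyrosine kinases and their ligands were examined in OCI-AML2 cells, a human line derived from acute myeloid leukemia. The set has 9 genes of the 58233 identifiers in the count table: the receptors CSF1R, PDGFRB, PDGFRA, FLT3 and KIT and the ligands CSF1, IL34, FLT3LG and KITLG. They were chosen by family and with their differences between the groups in earlier results of these counts known, among them a higher CSF1R in the libraries labelled IKZF1-ko. The differences of the members between the groups are therefore given as a description, with no test.

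Polyadenylated RNA was sequenced from cells carrying a non-targeting guide (NT control) and from cells in which IKZF1 had been targeted by CRISPR (IKZF1-ko), with 3 libraries each and no further treatment in the labels. The product of IKZF1 is Ikaros, a DNA-binding regulator of blood cell development, and the series asked which genes differ with its loss. The design text speaks of separate lines in each group and the extraction protocol of parental and knockout cells in triplicate. The labels do not say whether a library is a line, a clone or a culture, so p-values measure the spread between libraries, which may be technical.

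Type III receptor tyrosine kinases have extracellular immunoglobulin-like domains and a kinase domain split by an insert, and a dimeric ligand joins 2 receptor molecules so that they phosphorylate each other. CSF1R drives the growth and survival of monocytes and macrophages and is bound by CSF1 and IL34. FLT3 with FLT3LG and KIT with KITLG act in blood progenitors, and PDGFRA and PDGFRB act mainly in mesenchymal cells and pericytes.

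CSF1R (ENSG00000182578) lies on the minus strand of GRCh38 at chr5:150053291-150113372, and PDGFRB (ENSG00000113721) follows on the same strand at chr5:150113837-150155872. Only 464 bases separate the end of the PDGFRB body from the upstream start of CSF1R. Promoter windows from RefSeq on GRCh38.p14, covering the 250 bases before a start, were found for 7 of the 9 members. The windows of the 3 most abundant receptors are shown, with both of the 2 starts of CSF1R. They were chosen with their motifs and the levels of the genes across the libraries known. Nothing is therefore read from how the windows differ. Sequences run 5′ to 3′ on the strand of the gene, and each start lies just to the right of the last base printed. Capitals mark GGGAA or its complement TTCCC (the core of Ikaros sites), GAGGAAG and AGAGGAA (purine-rich forms bound by PU.1) and TGTGGT (the core of RUNX sites).
CSF1R, upstream start, minus strand, chr5:150113366-150113615: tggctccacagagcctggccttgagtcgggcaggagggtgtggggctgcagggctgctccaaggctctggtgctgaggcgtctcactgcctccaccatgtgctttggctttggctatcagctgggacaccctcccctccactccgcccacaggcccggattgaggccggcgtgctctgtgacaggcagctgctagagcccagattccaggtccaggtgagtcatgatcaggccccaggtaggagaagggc
CSF1R, downstream start, minus strand, chr5:150086555-150086804: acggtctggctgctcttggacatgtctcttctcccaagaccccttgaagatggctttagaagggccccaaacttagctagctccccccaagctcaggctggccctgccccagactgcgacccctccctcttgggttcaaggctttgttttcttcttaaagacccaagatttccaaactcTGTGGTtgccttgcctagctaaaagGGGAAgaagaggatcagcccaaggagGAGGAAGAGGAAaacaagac
PDGFRB, minus strand, chr5:150155846-150156095: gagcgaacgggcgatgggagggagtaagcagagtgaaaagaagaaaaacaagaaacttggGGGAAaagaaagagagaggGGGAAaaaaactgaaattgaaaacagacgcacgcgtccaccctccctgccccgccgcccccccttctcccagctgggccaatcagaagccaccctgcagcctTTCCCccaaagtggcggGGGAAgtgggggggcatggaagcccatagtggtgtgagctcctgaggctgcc
FLT3, minus strand, chr13:28100577-28100826: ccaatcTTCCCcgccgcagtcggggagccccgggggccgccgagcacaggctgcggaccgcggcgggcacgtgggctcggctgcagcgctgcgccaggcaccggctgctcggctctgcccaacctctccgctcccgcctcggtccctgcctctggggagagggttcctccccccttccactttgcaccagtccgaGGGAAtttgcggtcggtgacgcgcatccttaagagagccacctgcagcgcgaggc

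None of the motifs was found in the window of the upstream CSF1R start, which adjoins PDGFRB. The window of the downstream start, inside the CSF1R body, held TGTGGT from base -71 to -66, GGGAA from -46 to -42, GAGGAAG from -20 to -14 and AGAGGAA from -15 to -9, counted from the start. GAGGAAG and AGAGGAA overlap there. The PDGFRB window held GGGAA 4 times and the FLT3 window 2 times, counting both strands. Among 35116 RefSeq windows of this length, GGGAA was present in 59.0%, GAGGAAG in 11.2%, TGTGGT in 11% and AGAGGAA in 8.13%. The C/EBP motif TTGCNNAA, found in 9.05% of windows, was in none of the 4, and TATAAA, found in 10.7%, was also in none of them. Windows of members not shown did hold them, TTGCNNAA in both PDGFRA windows and TATAAA in the KITLG window. GGGAA was found 3 times in the KITLG window and 1 time in the KIT window and in each FLT3LG window. GAGGAAG was in 1 of the FLT3LG windows. These matches describe the letters of the windows. The counts are per gene, so the use of each CSF1R start was not measured.

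Library totals ranged from 11300519 to 18214328 counts. IKZF1 messenger RNA was not lower in the libraries labelled IKZF1-ko: in CPM, the read count scaled by library size, it stood at 331, 292 and 334 in NT control and at 421, 426 and 436 in IKZF1-ko, replicates 1 to 3. Gene counts do not show whether the protein was lost, and every direction here is between the labels. Across all genes NT control replicate 2 and IKZF1-ko replicate 1 stood apart from the other 4 libraries on the first principal component, which held 67.57% of the variance. With edgeR on group alone, 0 of 13028 genes were called at an adjusted p of 0.05 (0%), against 456 at an unadjusted p under 0.05 (3.5%), 71 with DESeq2 and 1 with limma-voom. With a term for the library set, 1765 genes were called (13.5%), 903 of them higher in IKZF1-ko (6.93%) and 862 lower (6.62%). The count was 811 without IKZF1-ko replicate 3 and 948 without NT control replicate 1. In the 4 libraries alone, NT control replicates 1 and 3 against IKZF1-ko replicates 2 and 3, 1908 of 12951 were called (14.7%), with 7.64% higher and 7.1% lower in IKZF1-ko. Because the sets were read from the counts, p-values from the set term take them as known.

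Of the 9 members, 4 passed the filter on low counts: FLT3, PDGFRB, CSF1R and KITLG. FLT3 was the most abundant receptor, CSF1R was higher in all 3 libraries labelled IKZF1-ko, and KIT, PDGFRA and every ligand but KITLG had few or no counts. The label of a leukemic myeloid line was checked against its markers, and 11 of 12 myeloid leukemia markers passed the filter. The list summed to 2553 to 4233 CPM in NT control, against 2879 to 4371 CPM in IKZF1-ko. AZU1, at 688 to 1677 CPM, was its highest gene in every library, so the sum does not describe the whole list. With the library-set term 4 rose and 1 fell, beside 6.93% higher and 6.62% lower among all genes. Those that rose included ELANE (log2 difference 0.77, edgeR adjusted p = 1.11e-06) and CTSG (0.60, edgeR adjusted p = 2.34e-06). PRTN3 also rose (0.43, edgeR adjusted p = 5.92e-04), and LYZ fell (-0.36, edgeR adjusted p = 1.23e-04). In bulk RNA, fewer cells of a type and less RNA per cell cannot be told apart.

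**Figure D1:**
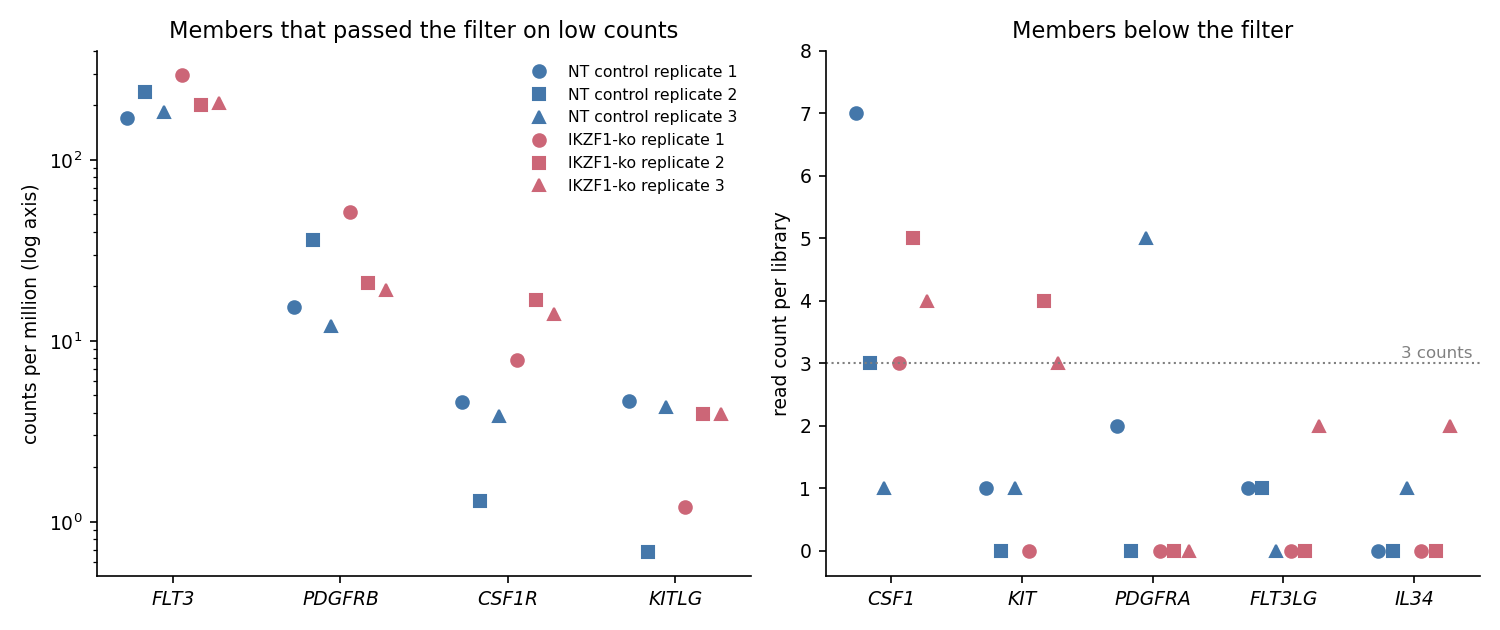
Left, CPM of the 4 members that passed the filter, on a log axis; right, read counts of the other 5 members, with a dotted line at 3 counts. Points are single libraries, coloured by group and shaped by replicate. CSF1R lay at 1.30 to 4.58 CPM in NT control, against 7.82 to 16.8 CPM in IKZF1-ko, while the groups overlapped for PDGFRB, FLT3 and KITLG.

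CSF1R, the macrophage growth factor receptor, was at 4.58, 1.30 and 3.85 CPM in NT control replicates 1 to 3, from 54, 19 and 44 counts. In IKZF1-ko it was at 7.82, 16.8 and 14.1 CPM, from 117, 308 and 239 counts. The lowest IKZF1-ko library stood above the highest NT control library, so the groups did not overlap. The means were 3.24 ± 1.72 and 12.9 ± 4.62 CPM (SD, n = 3). A gap between the groups was present for 9.35% of all 13028 genes tested, with IKZF1-ko above in 5.28% and below in 4.07%, and nothing is read from it for CSF1R because the set was chosen with this contrast known.

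The log2 difference of CSF1R, IKZF1-ko over NT control, was 2.01 ± 0.49 (SE) on group alone. Adding the library-set term gave 2.03 ± 0.17, a fold of 4.07. In the 4 libraries alone it was 1.87 ± 0.16, a fold of 3.67. Between the remaining libraries, IKZF1-ko replicate 1 over NT control replicate 2, the ratio was 6.03, with a 95% interval of 3.69 to 10.4 that covers counting error only. Both the lowest NT control library and the lowest IKZF1-ko library for CSF1R belonged to this pair. CSF1R was thus higher by label within each set, on a level that itself was lower in the pair.

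PDGFRB, the receptor of mesenchymal cells and pericytes whose gene adjoins CSF1R, was at 15.4, 36.1 and 12.2 CPM in NT control and at 51.9, 21.0 and 19.1 CPM in IKZF1-ko. The 2 highest libraries were IKZF1-ko replicate 1 and NT control replicate 2, so the groups overlapped, with means of 21.2 ± 13.0 and 30.6 ± 18.4 CPM (SD, n = 3). On group alone the log2 difference was 0.52 ± 0.53 (SE), and it was 0.53 ± 0.09 with the library-set term and 0.54 ± 0.12 in the 4 libraries. The group-alone value went to -0.09 without IKZF1-ko replicate 1 and to 1.15 without NT control replicate 2. Within the pair the ratio was 1.44 (95% counting interval 1.28 to 1.61).

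FLT3, the receptor of early blood progenitors, lies on the minus strand at chr13:28003274-28100592 (ENSG00000122025). Its levels were 170, 238 and 183 CPM in NT control and 296, 200 and 206 CPM in IKZF1-ko. As with PDGFRB, the 2 highest libraries were IKZF1-ko replicate 1 and NT control replicate 2, and the groups overlapped. Its log2 difference was 0.25 ± 0.20 (SE) on group alone. Adding the library-set term gave 0.24 ± 0.05, and the 4 libraries gave 0.20 ± 0.05. On group alone it went to 0.04 without IKZF1-ko replicate 1 and to 0.41 without NT control replicate 2. The pair gave a ratio of 1.25 (95% counting interval 1.19 to 1.30).

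KITLG, the ligand of KIT, lies on the minus strand at chr12:88492793-88580851 (ENSG00000049130). It was at 4.67, 0.683 and 4.29 CPM in NT control and at 1.20, 3.93 and 3.96 CPM in IKZF1-ko, from 10 to 72 counts. The same pair stood apart, here as the 2 lowest libraries. The log2 difference was -0.06 ± 0.72 (SE) on group alone. Adding the library-set term gave -0.04 ± 0.22, and the 4 libraries gave -0.18 ± 0.21. The pair pointed the other way, with a ratio of 1.76 and a 95% counting interval of 0.771 to 4.27. In each of these 3 fits the KITLG difference was smaller than its standard error.

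**Figure D2:**
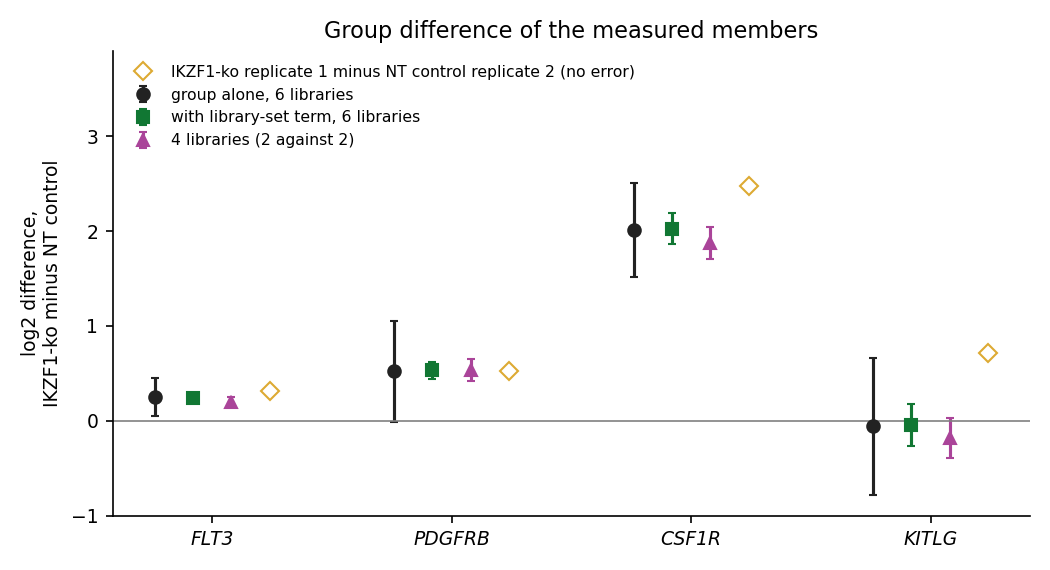
Log2 difference, IKZF1-ko over NT control, of the 4 members that passed the filter, from the group-alone fit, the set-term fit and the 4 libraries alone; bars are standard errors. The set term left CSF1R at 2.03 and PDGFRB at 0.53 and narrowed their bars.

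The spread between the library sets differed among the members. The mean of NT control replicate 2 and IKZF1-ko replicate 1 over the mean of the other 4 libraries was 2.60 for PDGFRB and 1.41 for FLT3. It was 0.463 for CSF1R and 0.224 for KITLG. For PDGFRB and FLT3 both libraries of the pair stood above the other 4, as for 32.5% of all genes tested. For KITLG both stood below them, as for 31.5%. In CSF1R alone of these 4 genes, IKZF1-ko replicate 1 stood above both NT control replicates of the other set although it was the lowest IKZF1-ko library. CSF1R, PDGFRB and FLT3 each had IKZF1-ko above NT control without overlap in the 4 libraries and also within the pair. That order held for 2484 of all genes tested (19.1%), and nothing is read from it, since the set was chosen with this contrast known.

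The ratio of the chromosome 5 neighbours moved with both the set and the label. CSF1R over PDGFRB, each in CPM per kilobase of exon, was 0.411, 0.0498 and 0.439 in NT control. In IKZF1-ko it was 0.209, 1.11 and 1.03. It was highest in IKZF1-ko replicates 2 and 3, the only libraries with more CSF1R than PDGFRB per kilobase, and lowest in NT control replicate 2.

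KIT, the stem cell factor receptor, is on the plus strand at chr4:54657918-54740715 (ENSG00000157404). It had 1, 0 and 1 counts in NT control and 0, 4 and 3 in IKZF1-ko. PDGFRA, its neighbour at chr4:54229097-54298247 on the plus strand (ENSG00000134853), had 2, 0 and 5 counts in NT control and 0 in each IKZF1-ko library. Taking 3 counts summed over the IKZF1-ko group as its floor (0.0598 CPM), the NT control level of 0.185 CPM stood 3.09-fold above that floor. The fold rests on 7 counts in 2 libraries, leaves out their own counting error and is not a lower bound. The groups overlapped, since NT control replicate 2 was also at 0. Both receptors were near the limit of detection, since 3 counts in a library stood for 0.164 to 0.262 CPM.

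The other ligands were also scarce in these cells. CSF1 (ENSG00000184371, chr1:109910242-109930992, plus strand), the main ligand of CSF1R, had 7, 3 and 1 counts in NT control and 3, 5 and 4 in IKZF1-ko. IL34 (ENSG00000157368, chr16:70579895-70660682, plus strand), its other ligand, had 0, 0 and 1 counts in NT control and 0, 0 and 2 in IKZF1-ko. FLT3LG (ENSG00000090554, chr19:49474207-49486231, plus strand), the ligand of FLT3, had 1, 1 and 0 counts in NT control and 0, 0 and 2 in IKZF1-ko. A difference between the groups was not detectable at this depth for CSF1, IL34, FLT3LG, KIT or PDGFRA. Of the exon length of FLT3LG, 37.53% is shared with 2 other genes on its strand that had 1 count in all. PDGFRA shares 15.75% with a gene that had 0 counts, and KITLG shares 1.289% with a gene on the opposite strand.

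Per kilobase of exon, averaged over all 6 libraries, FLT3 came first at 51.8 CPM per kb (40.9 to 71.2 over libraries) and PDGFRB next at 3.63 (1.70 to 7.27). CSF1R followed at 1.57 (0.252 to 3.27) and KITLG at 0.503 (0.110 to 0.752). The ranges over libraries of PDGFRB and CSF1R overlapped, as did those of CSF1R and KITLG, whereas that of FLT3 stood above all others. CSF1 was at 0.0491, KIT at 0.0170, FLT3LG at 0.0159, IL34 at 0.0154 and PDGFRA at 0.0104 CPM per kb, and the order of these 5 rests on 3 to 23 counts a gene.

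Set among 58 receptor tyrosine kinases, 21 passed the filter and 18 had 0 counts in every library. FLT3 ranked first and held 60.5% of their summed level per kilobase. The next in order were INSR at 5.60, RYK at 4.86, PDGFRB at 3.63, RET at 3.41, IGF1R at 3.07, TYRO3 at 2.08, LMTK2 at 2.03, LTK at 2.00 and CSF1R at 1.57 CPM per kb. The 3 receptors of this family that passed the filter thus took places 1, 4 and 10, while KIT and PDGFRA, below the filter, came at 29 and 32.

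**Figure D3:**
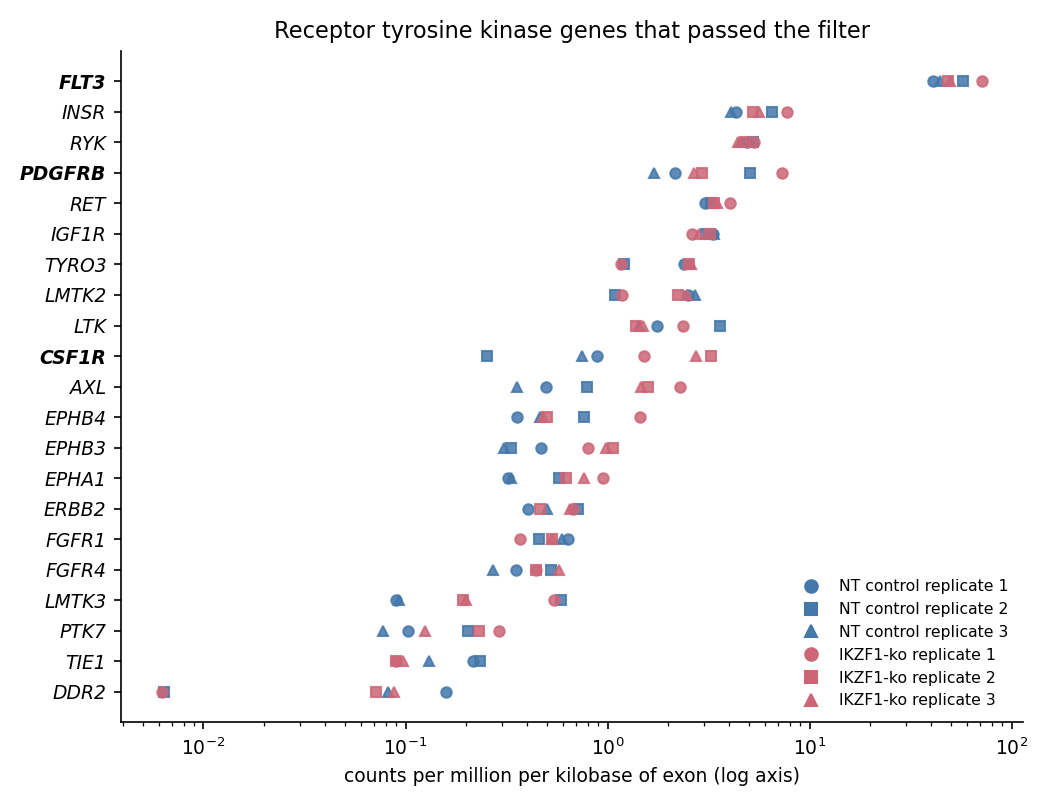
Levels of the 21 receptor tyrosine kinases that passed the filter, in CPM per kilobase of exon on a log axis; points are single libraries, coloured by group and shaped by replicate, and names of the family are in bold. FLT3 stands at 51.8 on average and the next, INSR, at 5.60.

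Of the 53 receptor tyrosine kinases outside the family, 18 were tested with the library-set term in edgeR, and 4 rose and 0 fell, beside 6.93% higher and 6.62% lower among all genes. The median log2 difference of the list was 0.17, against 0.00 for all genes. AXL, a receptor of GAS6, rose from 2.83 ± 1.16 to 9.18 ± 2.31 CPM (SD, n = 3; log2 difference 1.70 ± 0.17 SE, adjusted p = 3.33e-06 in edgeR). Its libraries stood at 2.55, 4.10 and 1.84 CPM in NT control and at 11.8, 8.14 and 7.57 CPM in IKZF1-ko, without overlap. The ephrin receptors EPHB3 (1.67 to 4.28 CPM, log2 difference 1.34, edgeR adjusted p = 6.04e-04) and EPHA1 (1.94 to 3.68 CPM, 0.92, edgeR adjusted p = 0.010) rose without overlap. INSR, the insulin receptor, rose from 52.0 to 64.9 CPM with overlap of the groups (0.33, edgeR adjusted p = 0.0019).

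Over the 8 pathway lists, which hold 177 genes outside the members, 129 were tested. The lists were chosen with earlier results of these counts known, so the counts and p-values of their genes are descriptions. With the library-set term, 15 rose and 7 fell, 17.1% of those tested beside 13.5% of all genes, with a median log2 difference of 0.03. DESeq2 called 19 and limma-voom 23 of them, and the count was 13 without IKZF1-ko replicate 3. In the 4 libraries 23 of 130 rose and 6 fell (22.3%, beside 14.7% of all genes), and 17 were called with DESeq2. On group alone edgeR called 0, with 10 at an unadjusted p under 0.05, 2 with DESeq2 and 0 with limma-voom.

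**Figure D4:**
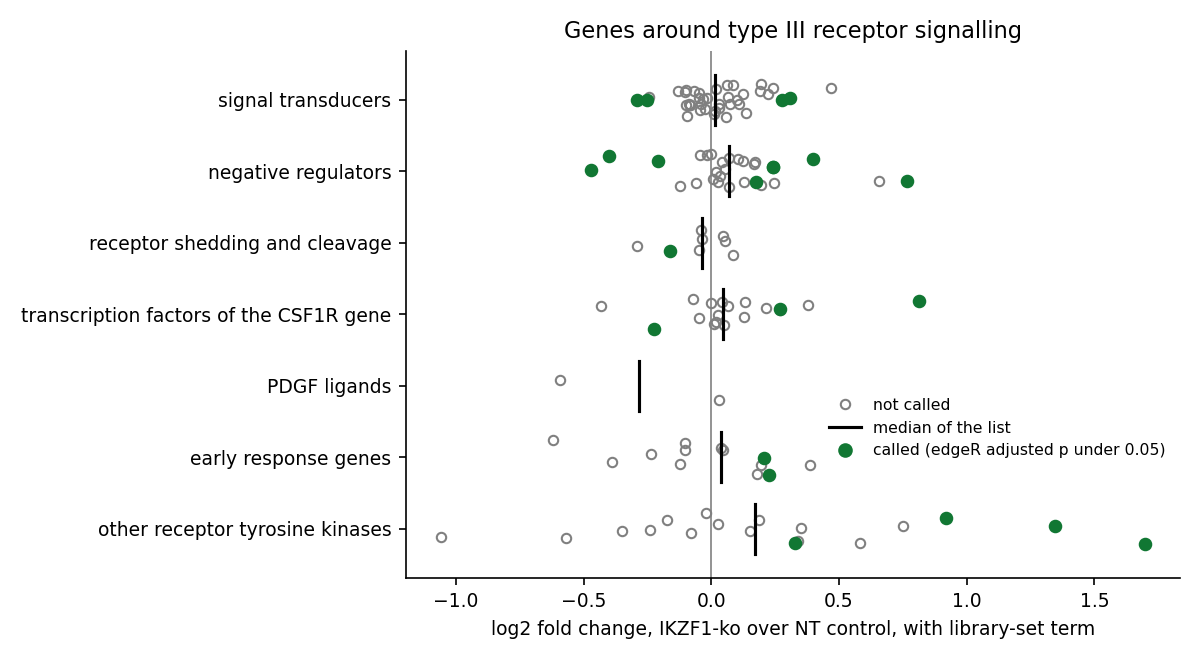
Log2 difference with the library-set term, IKZF1-ko over NT control, for the tested genes of each pathway list; each point is a gene, filled where called, and black bars are list medians. In the list of other receptor tyrosine kinases 4 of 18 tested genes rose, and AXL reached 1.70.

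All 41 signal transducers, the adaptors and kinases that carry the receptors' signal, were tested. With the library-set term 2 rose and 2 fell, beside 6.93% higher and 6.62% lower among all genes. In the 4 libraries 6 rose and 2 fell, beside 7.64% higher and 7.1% lower. SYK, a cytoplasmic kinase used in myeloid signalling, fell from 322 ± 24.3 to 270 ± 17.3 CPM (SD, n = 3; log2 difference -0.25, edgeR adjusted p = 1.02e-03), without overlap. The adaptor GAB2 (41.7 to 51.6 CPM, log2 difference 0.31, edgeR adjusted p = 0.0057) and PIK3R5, a regulatory subunit of PI3-kinase (57.5 to 70.1 CPM, 0.28, edgeR adjusted p = 0.0075), rose. HRAS fell from 20.7 to 17.0 CPM (-0.29, edgeR adjusted p = 0.044) and was not called in the 4 libraries (edgeR adjusted p = 0.12).

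Among 32 negative regulators of receptor signalling, 29 were tested, and 5 rose, 3 fell and 21 were not called, beside 6.93% higher and 6.62% lower among all genes. The 4 libraries alone gave 6 higher and 3 lower. SLA, an adaptor that lowers receptor levels, rose from 10.7 ± 2.71 to 18.0 ± 2.78 CPM (SD, n = 3; log2 difference 0.77, edgeR adjusted p = 1.37e-04), and DUSP6, a phosphatase of ERK, rose from 54.6 to 71.8 CPM (0.40, edgeR adjusted p = 1.94e-04). Neither overlapped between the groups. The adaptor DOK3 fell from 96.6 to 72.8 CPM (-0.40, edgeR adjusted p = 2.90e-04) and UBASH3B, a phosphatase that acts on activated tyrosine kinases, from 19.6 to 14.2 CPM (-0.47, edgeR adjusted p = 0.0031).

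Of 11 genes of receptor shedding and cleavage, 8 were tested. With the library-set term 0 rose and 1 fell, beside 6.93% higher and 6.62% lower among all genes. The gene that fell was NCSTN, a subunit of gamma-secretase, which went from 166 to 148 CPM (log2 difference -0.16, edgeR adjusted p = 0.035). It was not called in the 4 libraries (edgeR adjusted p = 0.082). The 15 early response genes had 13 tested. Beside the same shares of all genes, 2 of them rose and 0 fell with the library-set term. They were the cyclin CCND3 (log2 difference 0.23, edgeR adjusted p = 0.0072) and the immediate early gene IER2 (0.21, edgeR adjusted p = 0.025), and the groups overlapped for both. IER2 stayed called in 6 of 12 alternative settings of this fit, CCND3 in all 12, and DESeq2 called 1 of the 13 genes. CCND3 went with the library set, at 73.4 and 94.3 CPM in the pair and 230 to 264 CPM in the other 4 libraries. Of 14 early response genes tested in the 4 libraries alone, 5 rose and 0 fell, beside 7.64% higher and 7.1% lower among all genes. Named after its values were seen, the immediate early gene EGR1 rose there (log2 difference 0.86, edgeR adjusted p = 9.47e-10) and was not called with the library-set term (0.39, edgeR adjusted p = 0.10). It was at 32.6, 99.7 and 30.9 CPM in NT control and 79.9, 56.7 and 58.8 CPM in IKZF1-ko, so that the pair ran the other way.

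Of 19 transcription factors known to act on the CSF1R gene, 18 were tested. With the library-set term 2 rose and 1 fell, beside 6.93% higher and 6.62% lower among all genes. FLI1, an ETS factor, rose from 111 to 133 CPM (log2 difference 0.27, edgeR adjusted p = 0.0012), and MYB, a factor of immature blood cells, fell from 410 to 352 CPM (-0.22, edgeR adjusted p = 0.0038). The groups overlapped for both genes. KLF4, a factor of monocytes, rose from 2.32 to 4.04 CPM without overlap (0.81, edgeR adjusted p = 0.029) but was not called in the 4 libraries (edgeR adjusted p = 0.18). In the 4 libraries 2 of the 18 rose and 1 fell, beside 7.64% higher and 7.1% lower among all genes. Named after their values were seen, SPI1, which encodes PU.1, was at 229 and 222 CPM (-0.05, edgeR adjusted p = 0.58), RUNX1 at 167 and 172 CPM (0.04, edgeR adjusted p = 0.61) and CEBPA at 240 and 248 CPM (0.05, edgeR adjusted p = 0.54). IRF8, also named after its values were seen, was at 245 and 266 CPM (0.13, edgeR adjusted p = 0.086). It was called in the 4 libraries (0.16, edgeR adjusted p = 0.017).

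Of the 4 PDGF ligands 2 were tested, and with the library-set term 0 were called by edgeR, 1 had an unadjusted p under 0.05, and DESeq2 and limma-voom called 0. PDGFC was at 14.3 ± 0.311 CPM in NT control beside 14.5 ± 0.0396 CPM in IKZF1-ko (SD, n = 3; log2 difference 0.03, edgeR adjusted p = 0.89), and PDGFD at 2.37 and 1.58 CPM (-0.59, edgeR adjusted p = 0.18). None of the 5 VEGF receptors and alternative IL34 receptors passed the filter, and KDR, FLT4, PTPRZ1 and SDC1 had 0 counts in every library.

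The neighbourhoods of the receptor genes were read to see whether nearby genes differed too. Within 500 kb of CSF1R or PDGFRB lie 27 other genes, of which 9 were tested. With the library-set term edgeR called 0 of them, with 1 at an unadjusted p under 0.05, and DESeq2 and limma-voom called 0. Their log2 differences ran from -0.15 to 0.18, against 2.03 for CSF1R and 0.53 for PDGFRB. In the 4 libraries CD74, the invariant chain of MHC class II, was called (log2 difference 0.15, edgeR adjusted p = 0.030). RPL7P1, a pseudogene inside the CSF1R body on the opposite strand, was at 9.27 CPM in NT control, against 9.10 CPM in IKZF1-ko (-0.01, edgeR adjusted p = 0.97).

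Around KIT and PDGFRA 1 of 26 other genes was tested, CHIC2, at 8.65 and 8.75 CPM (log2 difference 0.02, edgeR adjusted p = 0.95). Around FLT3 4 of 22 were tested, and POLR1D, a subunit of RNA polymerases I and III, rose (0.17, edgeR adjusted p = 0.028), though DESeq2 did not call it. PAN3, LNX2 and PAN3-AS1 were not called, at log2 differences of 0.08, 0.27 and 0.42 (edgeR adjusted p = 0.31, 0.14 and 0.35). FLT3 itself, at 0.24, lay within the range of these neighbours.

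**Figure D5:**
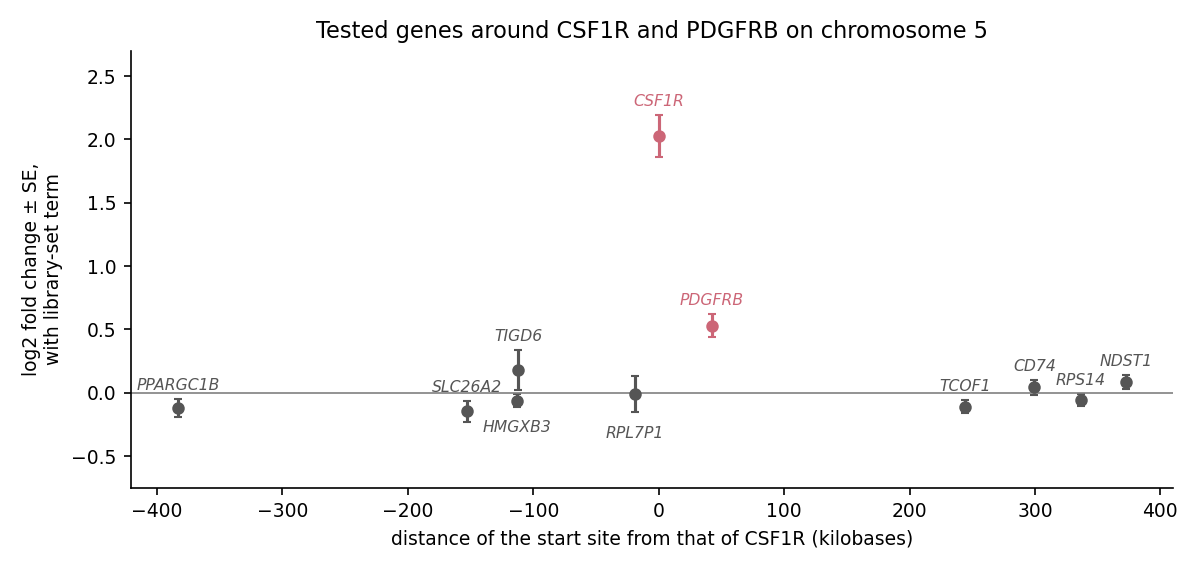
Log2 difference with the library-set term, IKZF1-ko over NT control, of tested genes by the distance of their start from that of CSF1R, in kilobases; bars are standard errors. CSF1R at 2.03 and PDGFRB at 0.53 stand above the 9 other genes, which lie between -0.15 and 0.18.

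Among 10255 other tested genes with a mean of at least 5 CPM, those whose log2 CPM followed CSF1R most closely over the 6 libraries were ANGPT1 (Pearson r = 0.994), TREM2 (0.992), SLA (0.992), WLS (0.991), CAPN2 (0.988) and CTNNA1 (0.987). Running most opposite were SLC15A4 (-0.993), ICAM2 (-0.991), THEM6 (-0.982), LCMT1 (-0.981), ANKRD33B (-0.98) and C12orf29 (-0.979). ANGPT1 stood at 4.75, 3.07 and 4.72 CPM in NT control and at 6.41, 8.79 and 8.81 CPM in IKZF1-ko, the same order of sets as CSF1R. FLT3 (r = -0.045) and PDGFRB (r = -0.128) did not run with CSF1R. The libraries fall into sets and share the groups, so these are descriptions over 6 points.

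CSF1R marks monocytes and macrophages, and part of a list of other markers of those cells was also higher in IKZF1-ko. Of 20 such markers 5 were tested, and with the library-set term 4 rose and 0 fell, beside 6.93% higher and 6.62% lower among all genes. They were TREM2 (3.30 to 23.1 CPM, log2 difference 2.86, edgeR adjusted p = 5.39e-09), CX3CR1 (1.74 to 7.02 CPM, 2.01, edgeR adjusted p = 4.05e-06), CCR2 (50.3 to 74.0 CPM, 0.57, edgeR adjusted p = 4.39e-05) and VCAN (4.23 to 6.64 CPM, 0.65, edgeR adjusted p = 0.011). VCAN stayed called in 9 of 12 alternative settings of this fit, and TREM2, CX3CR1 and CCR2 in all 12. The fifth tested marker, FCGR1A, an Fc receptor named after its values were seen, was at 56.8 and 63.6 CPM (0.16, edgeR adjusted p = 0.084). The summed level of the list was 113 to 123 CPM in NT control, against 171 to 182 CPM in IKZF1-ko. CCR2 and FCGR1A were the highest genes of the list in both groups and made up most of this sum. The sum therefore does not describe the list as a whole. C1QA, C1QB, C1QC, CD163 and FCGR3A had 0 counts in every library, CD14 reached at most 0.655 CPM, and CD68 at most 0.218 CPM. CD68 shares 81.73% of its exon length with another gene. The marker lists were chosen with earlier results of these counts known, so their counts and p-values are descriptions. Rises were not limited to this list, since 4 of the 11 tested myeloid leukemia markers also rose and 1 fell. The part of monocytes and macrophages in the CSF1R difference was not tested.

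Markers of the other cells in which these receptors act were mostly absent. Of 10 osteoclast markers 2 were tested and edgeR called 0 (CTSK adjusted p = 0.35, NFATC1 adjusted p = 0.75), with 0 at an unadjusted p under 0.05 and 0 by DESeq2 or limma-voom. Of the rest, ACP5, ATP6V0D2, CALCR and DCSTAMP had 0 counts. Their summed level was 22.1 to 30.2 CPM in NT control, against 23.0 to 26.3 CPM in IKZF1-ko. Of 8 mast cell markers, the cells that depend on KIT, 2 passed the filter. HDC, which makes histamine, had 21, 32 and 15 counts in NT control and 4, 7 and 3 in IKZF1-ko, so it passed through its NT control libraries and its test is not used. DESeq2 with the library-set term gave no adjusted p for HDC, and CMA1, CPA3 and TPSAB1 had 0 counts. Their summed level was 1.75 to 3.07 CPM in NT control, against 0.764 to 2.67 CPM in IKZF1-ko.

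Fibroblast and pericyte markers, which accompany PDGFRB in tissue, had 3 of 10 tested and summed to 5.53 to 15.4 CPM in NT control, against 8.62 to 20.8 CPM in IKZF1-ko. With the library-set term 1 of the 3 rose and 0 fell, beside 6.93% higher and 6.62% lower among all genes. It was CSPG4, a pericyte proteoglycan (log2 difference 0.74, edgeR adjusted p = 0.0021), and its groups overlapped. CSPG4 was at 10.5, 2.32 and 12.2 CPM in NT control and 6.28, 16.8 and 17.5 CPM in IKZF1-ko. Over the library sets it ran against PDGFRB, being lowest in the pair in which PDGFRB was highest. Named after their values were seen, LUM and RGS5 were not called (-0.73 and 0.40, edgeR adjusted p = 0.24 and 0.56). Neither overlapped between the groups in CPM, LUM being lower in IKZF1-ko and RGS5 higher, beside 9.35% of all genes tested without overlap. Their counts were low. LUM had 15, 17 and 16 in NT control and 3, 21 and 17 in IKZF1-ko, and its groups were parted only by 1.16 against 1.15 CPM. RGS5 had 8, 7 and 8 in NT control and 12, 15 and 14 in IKZF1-ko. Nothing is read from either gap.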

How the data were processed

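Polyadenylated RNA of OCI-AML2 cells was sequenced from stranded libraries, per the labels' protocols. The authors deposited 1 table of read counts per gene, used unscaled, with 58233 Ensembl identifiers and 0 columns of other samples. Trimmomatic, STAR and GRCh38 are named per the submitters' processing notes. The sources used here do not give the read counter, its strand setting or the annotation release. Counts of genes that overlap others are therefore uncertain. Those with an opposite-strand overlap include IKZF1, DOK3, DUSP6, NCSTN, MYB, FLI1, CCND3, IER2, EPHA1, AXL, VCAN, CSPG4, PDGFD, LYZ and WLS. Positions and exon lengths came from GENCODE release 29 (57895 identifiers matched) and symbols from a gene name table (57392 matched).

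The filterByExpr function of edgeR kept 13028 genes, or 12951 in the 4 libraries. CPM used TMM factors, and values are mean ± SD over 3 libraries. Tests used edgeR 4.0.16 (R 4.3.3) and its quasi-likelihood F test, two-sided, with Benjamini-Hochberg adjustment over all genes tested and a threshold of 0.05. They were run on group alone, with a term for the library set, and on the 4 libraries of the larger set. The term set NT control replicate 2 and IKZF1-ko replicate 1, found apart in an earlier analysis of these counts, against the other 4. The signs of the first principal component gave the same sets. Standard errors are the log2 difference divided by the square root of F. The steps were tested on simulated data. Alternatives were DESeq2 1.42.0, limma 3.58.1 (voom), sva 3.50.0, other scaling, no filter, a replicate block and leaving out each library. Floors of 3 counts cover counting error only.

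The members and lists were chosen with earlier results of these data known. Named were all members, IKZF1, up to 4 genes per list by adjusted p (or by level where none was called), the 6 genes most and least like CSF1R, called or highest neighbours, and the 10 most abundant receptor tyrosine kinases.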

Additional observations from a re-analysis of the deposited data

How the results depend on the processing

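CSF1R, PDGFRB and FLT3 kept the direction of their log2 difference under every alternative run with the library-set term, and KITLG, near 0, changed sign under some. CSF1R ranged from 1.62 to 2.35 on group alone, from 1.88 to 2.20 with the set term and from 1.74 to 2.01 in the 4 libraries when each library was left out. With 1 surrogate variable replacing the set term CSF1R was at 2.19, FLT3 at 0.17 and KITLG at 0.25, and PDGFRB at 0.34 against 0.53. The shifts of PDGFRB, FLT3 and KITLG were above their standard errors of 0.09, 0.05 and 0.22. Genes called on group alone went from 0 to 8 without the filter, 71 with DESeq2 and 1 with limma-voom, and stayed at 0 when each library was left out. With the set term they went from 1765 to 1159 with DESeq2 and 1047 with a surrogate variable, and ran from 811 to 1943 when each library was left out. In the 4 libraries they went from 1908 to 825 with DESeq2, and ran from 1339 to 1501. Pathway genes called went from 0 to 2 with DESeq2 on group alone. With the set term they went from 22 to 34 with the replicate block and ran from 13 to 30 when each library was left out. In the 4 libraries they went from 29 to 17 with DESeq2 and ran from 21 to 25. The causes of these shifts were not tested. Of 34 called genes of the lists and loci, 20 were called under every alternative of the set-term fit that gave them an adjusted p (HDC had none from DESeq2), and 0 reversed. Deviations of same-numbered libraries correlated at -0.655, -0.689 and 0.588. The libraries that stood apart bear different replicate numbers, so these signs follow the library sets. They cannot show whether the numbers pair the libraries. With the replicate block 0 genes were called on group alone and 2942 with the set term. The set-term fit with the block has nearly as many terms as libraries, so little is left to measure their spread. No paired analysis was possible for the 4 libraries because their groups share only replicate number 3. Depth limits the 5 members with 3 to 23 counts.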
